A study of Mus musculus with 6 samples.

Results

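The 10 transcripts described here encode structural and signalling products of stromal cells and the extracellular matrix: the collagen chains Col1a1, Col1a2 and Col3a1, the matrix proteins Sparc and Fbn1, the small leucine-rich proteoglycans Bgn, Dcn and Lum, and the niche factors Cxcl12 and Kitl. They were measured in LSK cells, the lineage−Sca-1+c-Kit+ fraction of mouse bone marrow (BM) in which haematopoietic stem cells (HSCs) and early progenitors are found. Members were chosen by name, as every probe that is no control spot and whose gene name on the array is 1 of the 10. This gave 27 probes of 56605, or 10 genes of 37074 named on the array. The 10 were picked with their levels in these same groups in view, so their levels and differences are given as a description, without a test.

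Total RNA came from 3 control samples (Atg5w/w;VaviCre+) and 3 Atg5f/f;Vav samples (Atg5f/f;VaviCre+), all on the C57BL/6 background, aged P6 to P8 and sorted by the same LSK gate. Cre was thus present in both groups, and the groups differed in the loxP-flanked Atg5 alleles, a gene needed for autophagy. The Vav promoter drives Cre in blood-forming cells and, in some lines, in endothelium, and is not used to target the mesenchymal cells of the marrow. Each sample was hybridised to 1 one-colour Agilent array of 60-base probes, and spots were read as brighter where more of the matching transcript was present. The sources used here do not say whether a sample was 1 mouse or a pool, so that n, SD, SE and p-values refer to the spread between arrays, which may be technical. All 6 arrays shared 1 slide and 1 scan, the control arrays lay in row 1 and the Atg5f/f;Vav arrays in row 2, so that genotype cannot be told apart from the row. In bulk RNA, fewer cells of a type and less RNA per cell cannot be told apart either.

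Values are log2 signals relative to the 75th percentile of the same array, so that 0 marks that percentile, and differences are Atg5f/f;Vav minus control. Between 53.6% and 59.9% of spots per array were well above background by the scanner software's call, and no spot was saturated. The probe for Atg5 itself starts at base 2251 of its transcript and gave 1.10, 0.93 and 1.06 in control and 1.46, 1.51 and 1.74 in Atg5f/f;Vav samples, a difference of 0.54 (SE 0.12, limma adjusted p = 0.0209). A probe so far along the transcript was not taken as a check of the deletion.

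Type I collagen is a triple helix of chains from Col1a1 and Col1a2, is the main fibrous protein of bone, and is made in the marrow by osteoblasts and other mesenchymal cells. Type III collagen, from Col3a1, runs with it in soft tissues and vessel walls. Sparc (osteonectin) binds collagen and calcium, fibrillin-1 forms the microfibrils that carry elastin and store latent TGF-β, and biglycan, decorin and lumican bind collagen fibrils and set their spacing. CXCL12 and KIT ligand are made by perivascular stromal and endothelial cells of the marrow and maintain and retain HSCs through their receptors CXCR4 and c-Kit, so that haematopoietic cells carry the receptors and the niche supplies the ligands.

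The probe stretches that stand behind the main values are shown first. Positions are those of the array design, on mm9. A pair of Col1a1 probes, chr11:94813075-94813134 and chr11:94813115-94813174 on the + strand, was printed on 10 spots each and shares 20 bases. These bases are in capitals in the last 30 bases of the first and the first 30 bases of the second, both written 5′ to 3′.
Col1a1 probe 3: tttttaccttTGACCAACTGAACGTGACCA
Col1a1 probe 2: TGACCAACTGAACGTGACCAaaaaccaaaa

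The first 30 bases of the brightest probe of each gene that set the arrays apart are given next, in lower case throughout. They lie at chr11:94814188-94814217 (Col1a1, + strand), chr6:4490619-4490648 (Col1a2, + strand), chr11:55208969-55208998 (Sparc, − strand), chr2:125126613-125126642 (Fbn1, − strand), chr10:96980233-96980262 (Dcn, + strand) and chr6:117131227-117131256 (Cxcl12, + strand). Whether a probe lies in an exon's coding or untranslated bases was not determined here.
Col1a1 probe 1: tctgtcctgcatcagggtttcagagcacca
Col1a2 probe 1: accaagaattccgtgtggaggttggccccg
Sparc probe 1: ggctgttccgcctggggataaggtgctaac
Fbn1 probe 1: tgttaaacatctacaccaaatggtagtgga
Dcn probe 1: aacaccttcagatgtgtctatgtgcgttct
Cxcl12 probe 1: aggagaaggcagcttcctatatgcagcgtg

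Col1a2 and Sparc were high and low on the same arrays, and the 150 bases before their start sites are shown for that reason. They come from RefSeq on GRCm38.p6, which had an entry for 7 of the 10 genes, and lie at chr6:4505468-4505617 (+ strand) and chr11:55420081-55420230 (− strand). The letters CCAAT were looked for on both strands, as were the letters TATAAA (the core of a TATA box) and those of an Sp1 site, GGGCGG. Matches of the first and second are in capitals.
Col1a2 promoter: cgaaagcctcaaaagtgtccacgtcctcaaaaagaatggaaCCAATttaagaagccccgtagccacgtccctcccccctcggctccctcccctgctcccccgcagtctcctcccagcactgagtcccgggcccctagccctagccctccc
Sparc promoter: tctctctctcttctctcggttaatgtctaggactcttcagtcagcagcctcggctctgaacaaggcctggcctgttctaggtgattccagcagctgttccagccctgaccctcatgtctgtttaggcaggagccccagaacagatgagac

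CCAAT stood 109 bases before the start of Col1a2, and none of the letters searched was in the Sparc window. Of 32851 promoter windows of the same length, 24.5% hold CCAAT, 7.57% hold TATAAA and 28.6% hold GGGCGG. Among the 7 members with an entry, TATAAA was found for Col3a1, 117 bases before its start, and for Kitl, 25 bases before it. GGGCGG was found 3 times each for Bgn and Kitl and 4 times for Cxcl12. No match overlapped one of another motif.

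Of the 27 member probes, 5 were well above background on all 6 arrays and 10 on none. On control arrays 1, 2 and 3, 11, 11 and 14 of them were above background, and on the Atg5f/f;Vav arrays 8, 6 and 8. In all, 11 probes passed the filter of at least 3 arrays, and they stand for 7 genes. Col3a1, Lum and Kitl have no such probe.

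**Figure D1:**
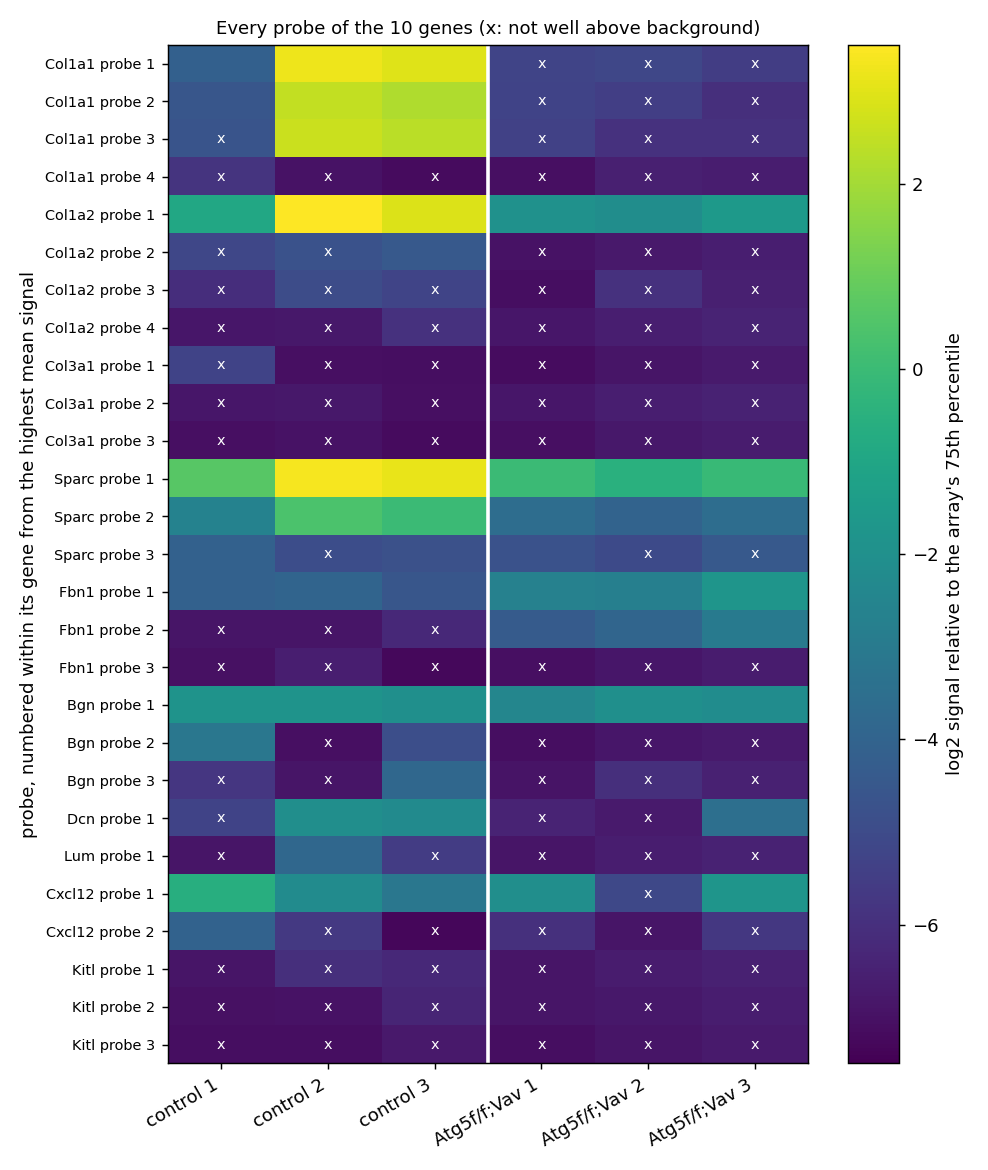
Log2 signal relative to the array's 75th percentile (colour) for each of the 27 probes of the 10 genes (rows) on each of the 6 arrays (columns, control on the left of the white line). A cross marks a probe not well above background on that array. The bright cells of Col1a1, Col1a2 and Sparc lie on control arrays 2 and 3, and all probes of Col3a1 and Kitl carry crosses throughout.

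Col1a1 was bright on control arrays 2 and 3 and dim on the other 4. Its brightest probe gave −4.14, 3.23 and 2.95 in control and −5.23, −5.16 and −5.49 in Atg5f/f;Vav samples. In unscaled intensity these were 37.3, 6109 and 5758 in control samples and 13.8 to 23.45 in Atg5f/f;Vav samples, where the probe was not well above background on any array. Control array 1 was still the highest of the 4 dim arrays, so that the groups did not overlap. Because the Atg5f/f;Vav level is only a bound, the mean control level was at least 39.0-fold higher, a bound that depends on the background correction. The means were 0.68 ± 4.17 and −5.30 ± 0.17 (SD, n = 3 each), and the measured difference was −5.98 (SE 1.84), or −4.20 with normexp background correction.

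The pair of overlapping Col1a1 probes repeated this on their own spots. Probe 2 gave −4.55, 2.50 and 2.20 against −5.27, −5.46 and −6.02, and probe 3 gave −4.65, 2.61 and 2.35 against −5.35, −5.94 and −5.92. Their control means were at least 25.2-fold and 26.2-fold higher. The spots of probe 2 differed by an SD of 0.32, 0.07 and 0.08 within control arrays 1, 2 and 3 and by 0.35 to 0.66 within the Atg5f/f;Vav arrays. This is the spread of spots on 1 array and not that of samples. Probe 2 was well above background on 6 of its 10 spots on control array 1, and probe 3 on 4 of 10. A further Col1a1 probe, at chr11:94800628-94800687 and designed on another transcript, was not well above background anywhere.

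Col1a2, the partner chain of the same collagen, was high on the same pair of arrays. Its brightest probe gave −0.90, 3.47 and 2.90 in control and −1.94, −2.10 and −1.60 in Atg5f/f;Vav samples. It was well above background on all 6 arrays, which Col1a1 was not. The difference was −3.70 (SE 1.05), or 13.0-fold, and the groups did not overlap. The other 3 Col1a2 probes were designed on other transcripts and were dim, with differences of −1.99, −1.11 and −0.10. Col3a1 was not well above background with any of its 3 probes on any array, and its level in either group is known only as a bound.

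Sparc, whose product binds collagen, followed the pair of type I chains. It gave 0.63, 3.36 and 3.15 in control and −0.01, −0.53 and −0.09 in Atg5f/f;Vav samples. The difference was −2.59 (SE 0.68), or 6.03-fold, without overlap between the groups. A further probe at chr11:55209449-55212106, which spans a splice junction, gave −2.61, 0.40 and −0.01 against −3.55, −3.98 and −3.58. Its difference was −2.97 (SE 0.73), so that both probes of the main transcript showed the same arrays high. A probe designed on a further transcript lay at −4.92 to −4.09 in control and −5.02 to −4.45 in Atg5f/f;Vav samples, and it did not follow them.

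**Figure D2:**
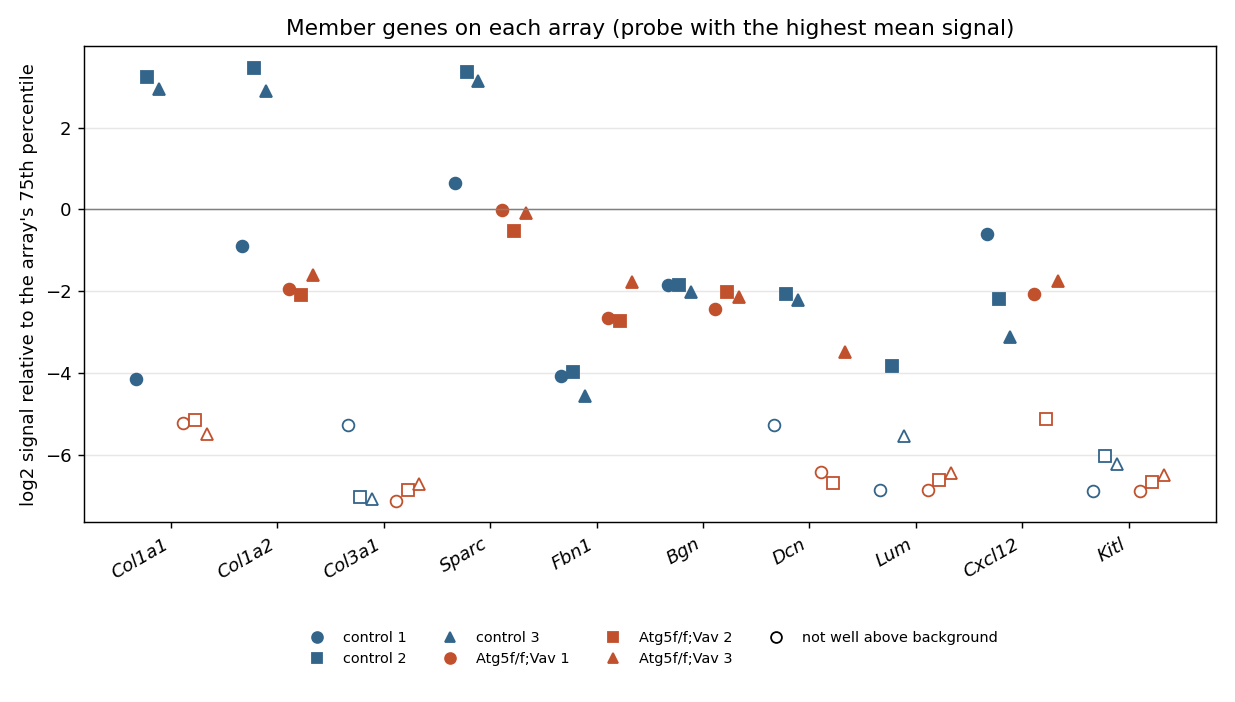
Log2 signal relative to the array's 75th percentile for the brightest probe of each of the 10 genes, 1 marker per array, with control in blue and Atg5f/f;Vav in orange. Open markers are not well above background. Col1a1, Col1a2 and Sparc are high on control arrays 2 and 3 and lower on control array 1, Fbn1 is higher on every Atg5f/f;Vav array, and Cxcl12 is highest on control array 1.

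Fbn1 ran the other way and did not share the split among controls. It gave −4.08, −3.97 and −4.56 in control and −2.66, −2.73 and −1.78 in Atg5f/f;Vav samples. The difference was 1.81 (SE 0.29), or 3.51-fold, with every Atg5f/f;Vav array above every control array. A neighbouring probe, at chr2:125126727-125126786, was not well above background in any control sample and gave −4.32, −3.93 and −2.98 in Atg5f/f;Vav samples, at least 2.15-fold higher. The remaining Fbn1 probe, on a further transcript, was at background throughout.

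The 3 small leucine-rich proteoglycans differed among themselves. Bgn was nearly level, at −1.85, −1.85 and −2.03 in control and −2.45, −2.02 and −2.15 in Atg5f/f;Vav samples, a difference of −0.29 (SE 0.14) with overlapping groups. Dcn gave −5.28, −2.07 and −2.23 in control and −6.42, −6.69 and −3.50 in Atg5f/f;Vav samples. Dcn was thus measured on control arrays 2 and 3, as the type I chains were, but also on Atg5f/f;Vav array 3, where those were low. Its difference was −2.34 (SE 1.12), and the groups overlapped. Lum was well above background only on control array 2, at −3.82, and lay between −6.87 and −5.55 on the other arrays. The other Bgn probes, on other transcripts, rose above background only on control arrays 1 and 3.

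Of the niche factors, Cxcl12 did not follow the collagens, and for Kitl this could not be seen. Cxcl12 gave −0.59, −2.19 and −3.12 in control and −2.06, −5.13 and −1.76 in Atg5f/f;Vav samples. The value of −5.13, on Atg5f/f;Vav array 2, was not well above background. Control array 1, the lowest control for Col1a1, Col1a2, Sparc and Dcn, was the highest for Cxcl12, and the second Cxcl12 probe was well above background on that array alone, at −4.04. The groups overlapped, and the difference of −1.02 had an SE of 0.997. Kitl was not well above background on any array with any of its 3 probes. Of the receptors in LSK cells, Cxcr4 gave −0.42, −0.47 and −0.45 in control and −0.06, −0.37 and −0.28 in Atg5f/f;Vav samples, a difference of 0.21 that did not pass the threshold (SE 0.12, limma adjusted p = 0.204). Kit gave 4.01, 4.12 and 3.93 against 3.82, 3.61 and 3.50, a difference of −0.38 that likewise did not pass (SE 0.13, limma adjusted p = 0.0563).

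In the fit over all probes, limma called 15.3% of all 20778 tested genes lower and 18.7% higher (34.1% in all). No call is given for the members. Of the 7 members with a tested probe, 3 had groups that did not overlap in the lower direction (Col1a1, Col1a2 and Sparc) and 1 in the higher (Fbn1). Among these, Col1a1 passed the filter through control arrays alone. Over all genes, the groups did not overlap for 26.3% in the lower and 29.6% in the higher direction. Since the members were chosen on this contrast, nothing is read from these counts. The median difference of the 7 was −2.34, which is the value of Dcn, whose groups overlapped, and that of all tested genes was −0.03. The 3 untested members had differences of −0.43 (Col3a1), −1.24 (Lum) and −0.30 (Kitl), which rest on signals mostly at background.

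For 5 of the 7 measured members, the control samples differed from each other more than for nearly all other genes. Between the highest and the lowest control array, Col1a1 spanned 7.37, the second widest span of the 20778 genes, and Col1a2 4.36, the fifth widest. Dcn spanned 3.21 (17th), Sparc 2.73 (31st) and Cxcl12 2.53 (40th). Dcn and Cxcl12 spanned as much or more among the Atg5f/f;Vav arrays, 3.20 and 3.37, while Col1a1, Col1a2 and Sparc spanned 0.33, 0.50 and 0.51 there. For Dcn and Cxcl12 that span reaches down to Atg5f/f;Vav array 2, where neither was well above background. The median gene spanned 0.25, and 25 genes spanned over 3. Fbn1 (0.58) and Bgn (0.18) lay far down this order, at 2495 and 14289.

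The size of the differences turned on which arrays were included. Without control array 1, the difference of Col1a1 was −8.38, of Col1a2 −5.07, of Sparc −3.47 and of Dcn −3.39. Without control array 2 they were −4.70, −2.88, −2.10 and −1.78, and without control array 3 they were −4.84, −3.17, −2.21 and −1.86. Dcn moved as far with an Atg5f/f;Vav array left out, to −1.76 without array 2 and −3.36 without array 3, while Col1a1, Col1a2 and Sparc moved less. Fbn1 stayed between 1.50 and 1.98 with any array left out. Cxcl12 changed sign without Atg5f/f;Vav array 2, to 0.055, the array on which it was not well above background. Col3a1 did so without control array 1, to 0.16, at background on all arrays.

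**Figure D3:**
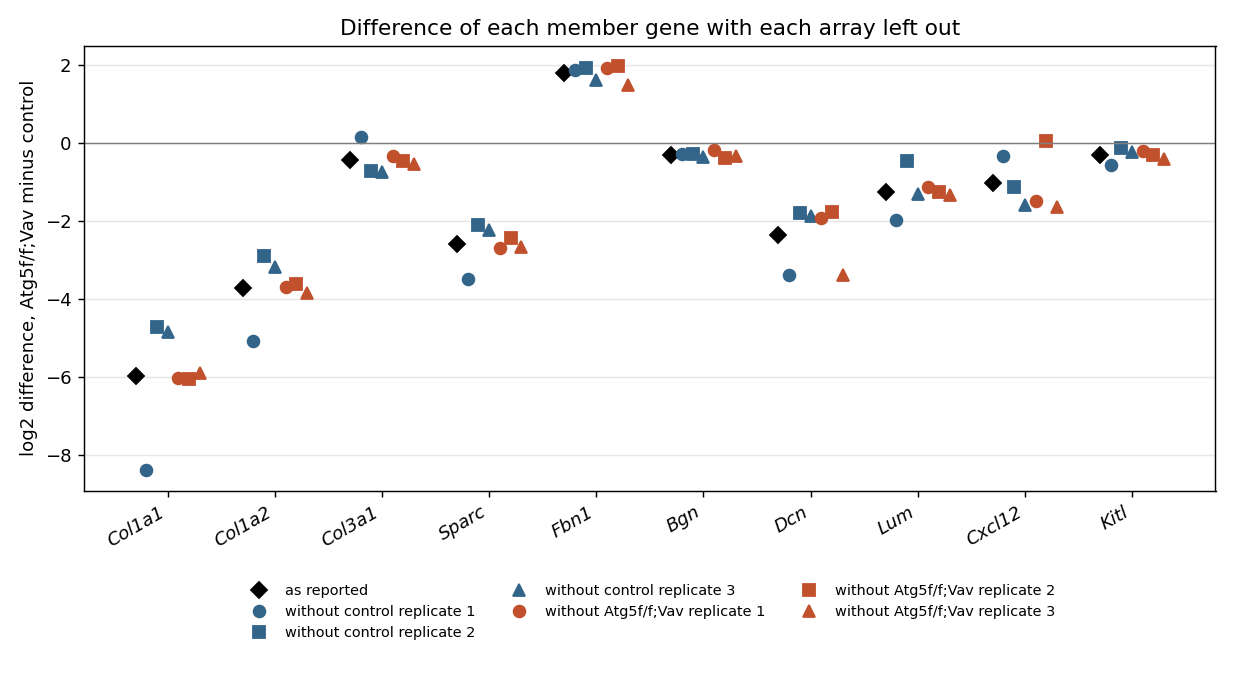
Difference of each gene on the log2 scale, Atg5f/f;Vav minus control, with all arrays (black diamond) and after leaving out each array. Col1a1, Col1a2, Sparc and Dcn are lowest without control array 1, Fbn1 stays above 0 throughout, and Cxcl12 crosses 0 without Atg5f/f;Vav array 2.

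Of genes outside the 10, those nearest to the median profile of the 7 measured members were Dpy19l4, Tas1r3, BE946531, an unnamed transcript of chromosome 17, Gm15413, Gm34086, Lpin1, TC1725173, Lmln and Gm19710. Likeness was the root mean square distance of centred log2 signals over the 6 arrays, and it ran from 0.07 to 0.13 with differences from −0.44 to −0.21. The median was taken over levels of different probes, and its values are those of Bgn on the control arrays and Atg5f/f;Vav array 1 and those of Fbn1 on Atg5f/f;Vav arrays 2 and 3. These genes are therefore not a description of the other members. Nearness to Col1a1 itself was added after its values were seen. Bglap2, an osteocalcin gene, was nearest, at a distance of 1.34, with −5.08, 2.85 and 0.37 in control and −4.24, −4.88 and −4.00 in Atg5f/f;Vav samples.

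Osteocalcin is a bone matrix protein made by osteoblasts. Bglap2 also had the widest span among control samples of all tested genes, 7.93, with the same pair of control arrays high as for Col1a1. Its close copies gave the same order of control arrays, Bglap by its brighter probe with −5.29, −0.16 and −2.66 and Bglap3 with −6.18, 1.93 and −0.45. The other Bglap probe, at −7.00, −5.61 and −7.25 in control samples, was not well above background on any array and did not give this order. Near-identical genes may share probes, and their signals are uncertain. The next 9 genes lay much further away, at 2.44 to 2.87. They were Gm38485, Mirg, Dhrs7c, AK043181, Meg3, Pxdn, Maob, Col11a1 and Mgam, of which Pxdn encodes peroxidasin, which crosslinks type IV collagen, and Col11a1 a fibrillar collagen chain. Col11a1 was well above background on control arrays 2 and 3, at −3.13 and −3.25, and on Atg5f/f;Vav array 3, at −4.09, the same 3 arrays as Dcn.

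**Figure D4:**
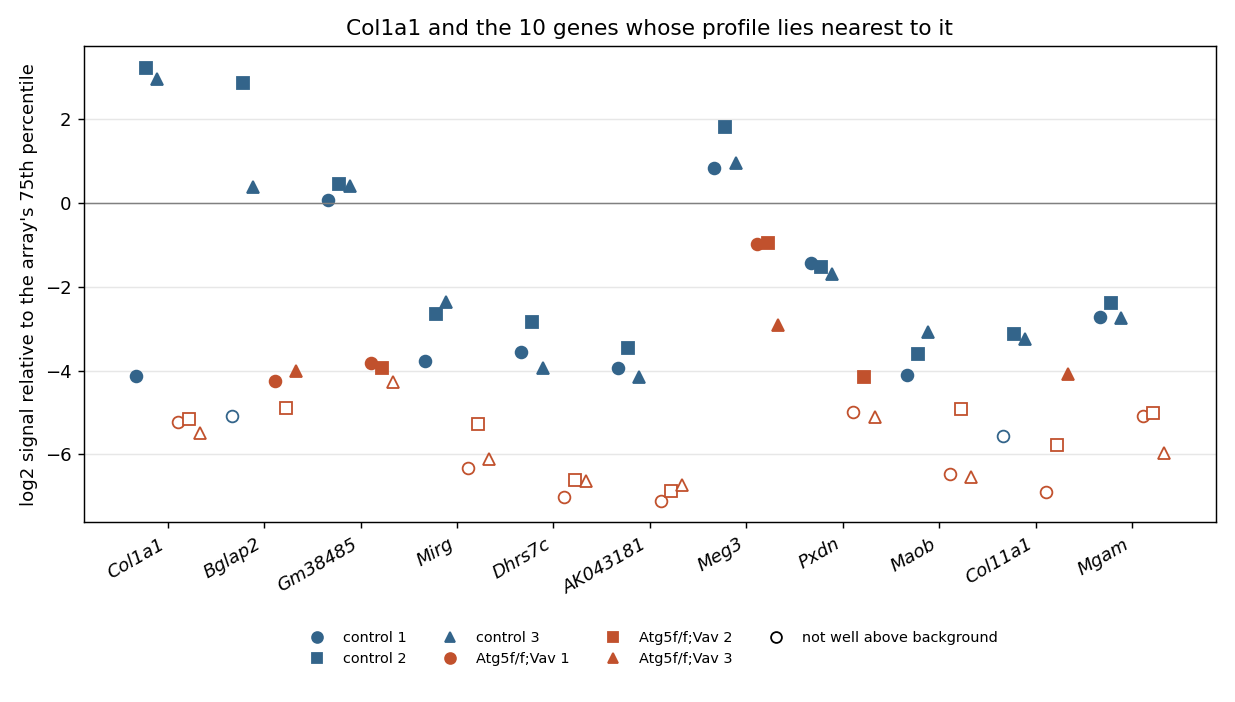
Log2 signal relative to the array's 75th percentile of Col1a1 and of the 10 genes nearest to its profile, 1 marker per array, control in blue and Atg5f/f;Vav in orange, with open markers not well above background. Bglap2 is low on control array 1 and high on the other controls, and the remaining 9 genes span less over the control arrays, from 0.26 (Pxdn) to 2.42 (Col11a1).

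Genes around the 10 were taken from lists of the matrix, and their calls stand beside 15.3% lower and 18.7% higher over all tested genes. In the counts of these and the later marker lists, fell and rose mean past the threshold. Of 20 genes that fold, modify or crosslink collagen, 13 were tested, 6 fell and 1 rose, with a median difference of −0.46. Serpinh1, the collagen chaperone HSP47, gave −1.52, −1.41 and −1.65 in control and −4.01, −3.45 and −4.17 in Atg5f/f;Vav samples. Its control samples were close together, unlike those of Col1a1, and it fell by 2.35 (SE 0.20, limma adjusted p = 0.00511). P4ha2, a prolyl hydroxylase subunit, fell by 1.94 (limma adjusted p = 0.0452), and Pcolce, which speeds removal of the procollagen C-propeptide, by 1.15 (limma adjusted p = 0.0477). P4ha2 was not well above background on any Atg5f/f;Vav array, so that its fall is only a bound, at least 1.57-fold. Pcolce was at −3.13, −1.56 and −2.19 in control samples, lowest on control array 1 as the type I chains were. P3h1, a prolyl 3-hydroxylase, rose by 0.37 (limma adjusted p = 0.0294).

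Among 14 other collagen chains, 4 were tested, 1 fell and 1 rose. Col5a1, a chain of the collagen that starts type I fibrils, gave −2.63, −2.18 and −2.46 in control and −0.40, 0.82 and 1.98 in Atg5f/f;Vav samples, a rise of 3.22 (SE 0.54, limma adjusted p = 0.0152). This was opposite in direction to Col1a1. Col16a1 fell by 1.58 (SE 0.33, limma adjusted p = 0.0181), and 4 further chains, Col5a2, Col6a1, Col14a1 and Col15a1, were not well above background on any array.

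Of 13 genes of the basement membrane, the sheet under endothelium, 7 were tested, 3 fell and 1 rose, with a median difference of −0.78. The type IV chains Col4a1 and Col4a2 fell by 1.02 and 0.91 (limma adjusted p = 0.0495 and 0.0445), and the laminin chain Lama5 by 0.78 (limma adjusted p = 0.0267). Agrn, the heparan sulphate proteoglycan agrin, rose by 1.11 (SE 0.15, limma adjusted p = 0.0130). Of 10 further matrix proteoglycans, 1 was tested and did not pass the threshold, and 7 were not well above background on any array.

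Of 29 elastic fibre and matricellular genes, kin of Fbn1 and Sparc, 19 were tested, 5 fell and 1 rose, with a median difference of −0.20. Postn (periostin) gave −2.20, −2.30 and −2.70 in control and −4.23, −4.90 and −6.63 in Atg5f/f;Vav samples. It fell by 2.85 (SE 0.57, limma adjusted p = 0.0171). Of the Atg5f/f;Vav arrays, Postn was well above background on array 1 alone, so that the size of its fall is uncertain. Thbs1 (thrombospondin 1) fell by 2.22 (limma adjusted p = 0.0196), and Mfap2, a partner of fibrillin-1 in microfibrils, by 1.74 (limma adjusted p = 0.0149). Thbs1 was not well above background on any Atg5f/f;Vav array, so that its fall is only a bound, at least 2.10-fold. Ltbp1, which binds latent TGF-β to fibrillin-1, rose by 2.42 (SE 0.60, limma adjusted p = 0.0251), in the direction of Fbn1. Of the control arrays, Ltbp1 was well above background on array 1 alone, so that the size of its rise is uncertain. The products of Mfap2 and Ltbp1 lie on the same fibre, and the genes moved in opposite directions.

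Of 10 genes for matrix breakdown, 8 were tested, and 4 fell and none rose past the threshold, with a median difference of −1.22. In direction alone, 6 were lower and 2 higher, of which Mmp14 was higher by 2.15 without passing (limma adjusted p = 0.0643). Mmp2, a gelatinase, fell by 1.88 (limma adjusted p = 0.0221), Mmp8, the collagenase of neutrophils, by 1.61 (limma adjusted p = 0.0267), and the inhibitor Timp2 by 1.40 (limma adjusted p = 0.0218). Of 16 receptors for the members, 12 were tested, and 2 fell and none rose past the threshold, with a median of −0.15. In direction alone, 7 were lower and 5 higher. The collagen-binding integrin chains Itga10 and Itga2 fell by 2.47 and 1.34 (limma adjusted p = 0.0149 and 0.0153). Itga2 was not well above background on any Atg5f/f;Vav array, so that its fall is only a bound, at least 1.26-fold. The second Itga10 probe was level, with a difference of 0.04, so that the 2 probes of this gene disagree.

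**Figure D5:**
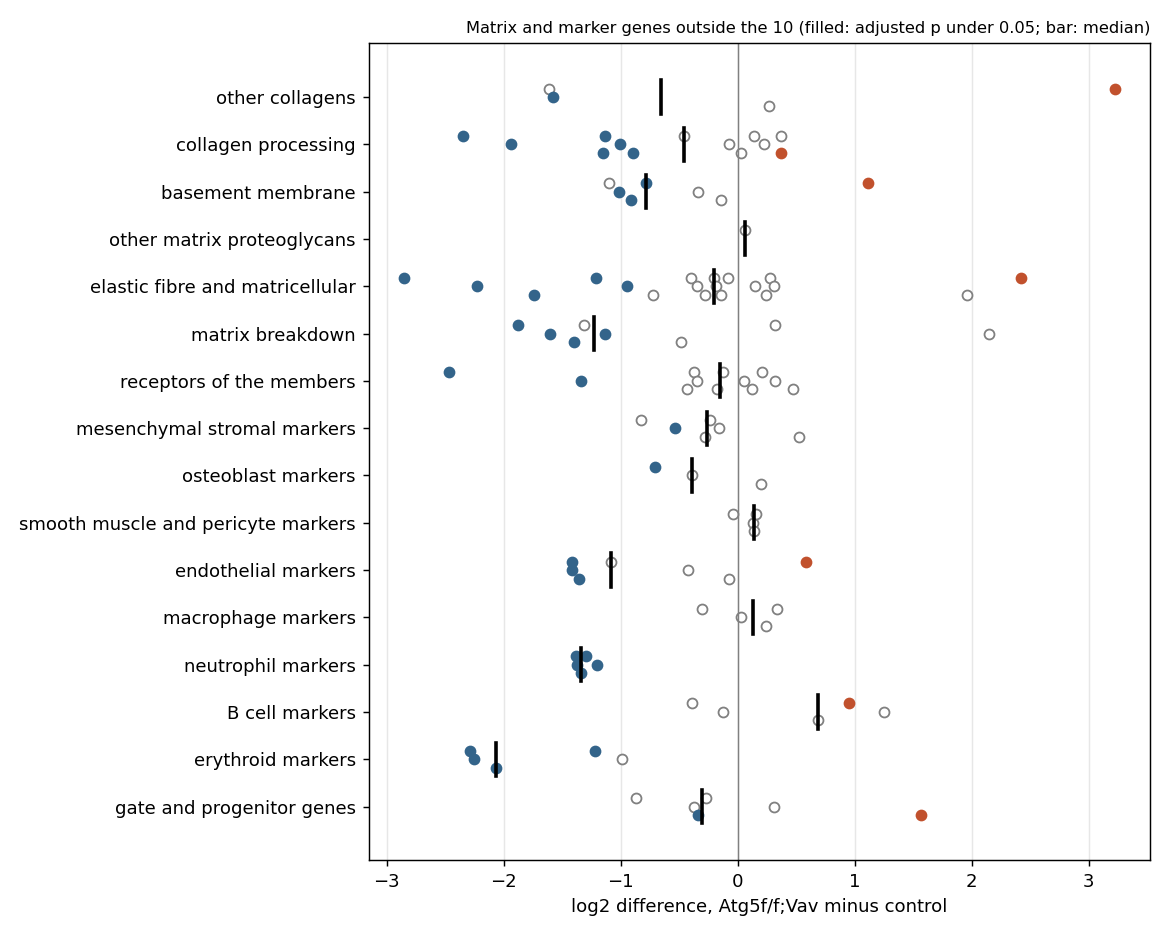
Difference on the log2 scale, Atg5f/f;Vav minus control, of each tested gene in the matrix and marker lists, outside the 10 members. Filled points passed the threshold (limma adjusted p), blue lower and orange higher, open points did not, and the bar is the list's median. In neutrophil and erythroid markers every tested gene lies below 0, and Col5a1, at 3.22, is the highest point.

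The calls in the matrix lists depended on the control arrays as well. With all arrays, 25 of these genes passed the threshold, but 2 without control array 1 and 1 without control array 2. Over all probes the count fell from 11024 (34.4%) to 221 and 157. Whichever array was left out, Serpinh1 passed, and it was the only matrix gene to do so.

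The sorted cells carried Kit and Ly6a (Sca-1), the positive markers of the gate. These and Ptprc, Cd34, Flt3 and Cd48, further genes of blood progenitors, were well above background on all 6 arrays, and Ly6a rose by 1.57 (SE 0.15, limma adjusted p = 0.00623), a call that also held whichever array was left out. Ptprc (CD45) fell by 0.34 at the edge of the threshold (SE 0.11, limma adjusted p = 0.04997), and the other 4 did not pass. Markers of the cells that make the members were partly at background. Of 11 mesenchymal stromal markers, Pdgfra, Ebf3, Foxc1, Twist1 and Adipoq were not well above background on any array, and 5 were on all 6. Of the 6 tested, Nes fell by 0.54 (limma adjusted p = 0.0331), and no other passed the threshold. The brightest Lepr probe lay between 1.95 and 3.12, but of the other 5 Lepr probes 4 were at background on all arrays, so that the level of Lepr is uncertain. The summed signal of the stromal markers, in units of the 75th percentile, was 13.7 to 18.2 in control and 10.8 to 15.4 in Atg5f/f;Vav samples, and 14.6 on control array 1. Most of this sum came from Lepr and Cdh11, with control means of 2.78 and 2.79, while Pdgfrb, the next highest, was at −0.22. The summed signal of the 10 members was 3.21, 31.6 and 24.7 in control and 1.90, 1.42 and 2.22 in Atg5f/f;Vav samples. On control arrays 2 and 3 it came mostly from Col1a1, Col1a2 and Sparc. Each sum thus reflects a few bright genes and not its whole list.

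Of 7 osteoblast markers, Runx2, a transcription factor of the lineage, fell by 0.71 (limma adjusted p = 0.0429), and 2 others that were tested did not pass. Ibsp and Phex were not well above background on any array, and Bglap was well above background on control arrays 2 and 3 alone. Dmp1, an osteocyte matrix gene, was well above background on control array 1 alone, at −2.98, the other way round from Bglap and Col1a1. The summed signal of these 7 was 1.28, 2.07 and 1.23 in control and 0.84 to 0.91 in Atg5f/f;Vav samples. No chondrocyte marker of 6 was tested, and 3 were not well above background on any array. Of 5 smooth muscle and pericyte markers, 4 were tested and none passed the threshold, with a median difference of 0.14.

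Of 9 endothelial markers, 7 were tested, 3 fell and 1 rose, with a median of −1.08. Kdr, a VEGF receptor, fell by 1.42, Robo4 by 1.41 and Emcn by 1.36 (limma adjusted p = 0.0138, 0.0442 and 0.0395), while Plvap rose by 0.58 (limma adjusted p = 0.0294). Cdh5, which defines endothelial junctions, was not well above background on any array, and neither was Flt4. The summed signal of the 9 was 15.3 to 16.9 in control and 3.85 to 9.87 in Atg5f/f;Vav samples, with 15.9 on control array 1, and did not share the split among controls. Most of this sum in control came from Robo4 and Emcn, with control means of 3.35 and 2.06, while Tie1, the next highest, was at −0.32. Which cells gave these signals was not tested.

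Markers of blood lineages that the gate is meant to remove were also measured. All 5 neutrophil markers fell, with a median of −1.34, led by S100a8 (−1.38), Ltf (−1.38) and S100a9 (−1.34) at limma adjusted p = 0.0252, 0.0206 and 0.0235. Of 5 erythroid markers, 4 fell, with a median of −2.07, led by Slc4a1 (−2.29), Hba-a1 (−2.26) and Alas2 (−2.07) at limma adjusted p = 0.0149, 0.0136 and 0.0168. Hba-a1 has a near-identical copy, so that its signal is uncertain. Of 5 B cell markers only Cd79a passed, rising by 0.95 (limma adjusted p = 0.0227), and none of 4 tested macrophage markers did. The summed neutrophil signal was 161, 77.2 and 124 in control and 36.9 to 66.6 in Atg5f/f;Vav samples, and the erythroid one was 710, 651 and 346 against 137 to 168. Control array 1 was highest for both, and lowest among controls for Col1a1 and Col1a2. The part of other cell types in the levels of the 10 genes was not tested.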

How the data were processed

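LSK RNA of 3 control and 3 Atg5f/f;Vav samples was hybridised to one-colour Agilent arrays. The authors deposited an intensity for each spot, corrected for background by Feature Extraction 12.0.3.1. They also deposited a normalised signal on a linear scale, which is that intensity over the 75th percentile of all spots of the array (the ratio varied by at most 0.000267% within an array). Here, log2 intensity was scaled by subtracting the 75th percentile of the 59305 non-control spots. Flagged outlier spots, 64 to 81 an array, were dropped, and spots of a probe were averaged. A probe was kept if 3 or more arrays called it well above background, which left 32074. These were fitted with limma 3.58.1 under R 4.3.3, by lmFit and eBayes, and the 2-sided p-values were adjusted by Benjamini-Hochberg over the whole table, with a threshold of 0.05. A gene stood for its brightest tested probe. The steps were tested on simulated data, where the fit recovered 41 of 100 planted log2 changes of 1 and 87 of 100 of 2, with 8 false calls. In these simulated data a change of 1 was thus often missed. They held few planted changes, while 11024 of the 32074 probes passed in the real fit. The share missed in the real fit is therefore not known. The number of arrays limits the precision.

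The 10 genes and all lists were chosen with earlier results of these data known. Named were all members, at most 3 genes each way per list with the largest differences past the threshold, the 10 genes nearest to the members' median profile, Kit, Ly6a and the progenitor genes listed with them, and Cxcr4. Those nearest to Col1a1, the Bglap copies, Lepr, Dmp1 and the markers at background were named after their values were seen. The alternatives were normexp (offset 50), quantile normalisation, a percentile over detected probes alone, the deposited signal, other filters, outlier spots kept, an eBayes trend, a replicate block, the methods' t-test, the mean of a gene's probes, and each array left out. No block for slide or scan could be fitted, since all arrays shared 1 slide and 1 scan.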

Additional observations from a re-analysis of the deposited data

How the results depend on the processing

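With all arrays, 11024 probes, 25 matrix genes and 18 marker genes passed the threshold. Without a filter on dim probes these counts were 4538, 13 and 7, and with the methods' t-test after Benjamini-Hochberg adjustment they were 0, 0 and 0, against 13539, 24 and 17 at an unadjusted p under 0.05. With 1 array left out they ran from 157 to 10426 probes, from 1 to 27 matrix genes and from 1 to 21 marker genes; the lowest came without control array 1 (221, 2 and 1) and without control array 2 (157, 1 and 1). Without control array 3, 16 matrix and 9 marker genes passed, and without Atg5f/f;Vav array 2, 9 marker genes did. The cause was not tested. The median member difference of −2.34 was −0.90 with normexp, −1.90 with the mean of a gene's tested probes, and −3.39 to −1.76 with 1 array left out. Of the 10 genes nearest to the members' median profile, 2 were among the 10 with normexp, 3 with quantile normalisation, 0 to 7 with 1 array left out, and 0 with the profile of Col1a1, an alternative added after the data were seen. Scaling to probes detected on all arrays moved the median of all probes from −0.06 to −0.27 and the split from 5484 lower and 5540 higher to 10088 and 3371. With normexp, Col1a1 moved from −5.98 to −4.20, Dcn from −2.34 to −0.90, Lum from −1.24 to −0.35 and Cxcl12 from −1.02 to −0.53. Fbn1 moved to 0.94 with it and 2.36 with the mean of its tested probes, and Bgn to −0.11 with quantile normalisation and −0.50 with that scaling.

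The replicate number as a block gave 10173 probes, 24 matrix genes and 17 marker genes. Deviations of same-numbered arrays correlated at −0.07, 0.19 and 0.11, so that the numbers were not taken as pairs. Dim members lie at the scanner's background, where signal over background sets only a bound.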
